A study of Mus musculus with 5 samples.

Results

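MAP kinase cascade and dual-specificity phosphatase (DUSP) genes were taken as the autosomal protein-coding genes whose symbols begin with Mapk, Map2k, Map3k, Map4k or Dusp and a number, which gave 66 of 21275 genes. They comprised 39 kinases, 22 phosphatases and 5 binding or related proteins (Mapk1ip1, Mapk1ip1l, Mapk8ip1, Mapk8ip2 and Mapk8ip3). Dusp9 is X-linked and so fell outside the rule. Chromatin immunoprecipitation with sequencing (ChIP-seq) had been done on double-positive (DP) thymocytes, which are immature T cells with CD4 and CD8 on their surface, to ask where Cxxc1 binds and how trimethylation of lysine 4 on histone H3 (H3K4me3) differs without it. The WT mice carried Cxxc1 fl/fl and no Cre, and the Cxxc1-deficient mice carried Cxxc1 fl/fl with hCD2-Cre, so both shared the floxed allele, on a C57BL/6 background after backcrossing from targeted ES cells. Animals were 3 to 4 weeks old unless the study stated otherwise. The Cre is driven by the human CD2 promoter, which acts from early thymocyte stages and in other immune cells. Loss of the floxed exons had thus begun at earlier stages, where the study found it incomplete, and it was complete at the DP stage. The titles name the deficient samples KO whereas their genotype label reads Cxxc1+/-, and the titles were followed.

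Each of the 3 lists used here (Cxxc1 in WT, H3K4me3 in WT and H3K4me3 in Cxxc1-deficient cells) came from 1 library of the 5 in the series, so the genotypes were compared without replicates and no p-value is given. A list holds 200-bp windows inside called regions, each with its tags per 1000000 mapped tags (RPM). A place that is not listed has an unknown signal, not a signal of 0. A gene was called marked when a window overlapped the 1 kb on either side of any of its transcription start sites (TSSs), and its promoter RPM is the sum over those windows. A WT marked gene that was also marked in Cxxc1-deficient cells is called kept. The libraries held 9.091 to 9.473 M tags, yet the WT list had 14237 H3K4me3 peaks and the deficient list 2979. Shares below carry 95% Wilson intervals over genes, which cover counting error only. Of 11 DP thymocyte genes found in the annotation (Ptcra was not matched), 5 were marked in WT (Cd8a, Cd8b1, Cd3e, Lck and Bcl11b) and 3 in Cxxc1-deficient cells (Cd8a, Cd3e and Rag1), while Cd4, Rag2, Cd3d, Cd3g and Themis had no listed promoter window in either. Of 15 genes of B cells, myeloid cells, erythroid cells and thymic epithelium, 1 was marked in each genotype, the erythroid genes Klf1 in WT (0.9 RPM) and Epor in the deficient list. The part of other cells in the results below was not tested.

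In a MAP kinase cascade a MAP3K phosphorylates a MAP2K, which phosphorylates a MAP kinase, and MAP4Ks act above the MAP3Ks. The ERK, JNK and p38 MAP kinases then phosphorylate transcription factors and other kinases. Classical MAP kinase phosphatases of the DUSP family remove those phosphates, and several of their genes are themselves switched on by MAP kinase signalling, which makes a feedback loop. In DP thymocytes the ERK branch carries T cell receptor signals for positive selection, and JNK and p38 take part in selection and death. H3K4me3 marks promoters, mostly those rich in CG dinucleotides, and Cxxc1 binds unmethylated CG and is a subunit of the Setd1 complexes that place the mark.

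The CG content of these promoters is best seen in the sequences themselves. Below are the 200 bases just upstream of the most upstream TSS in mm9 for 5 members, on the strand of the gene, with each CG in capitals. Dusp2 (chr2:127161695-127161894, + strand, 17 CG) and Dusp1 (chr17:26645465-26645664, - strand, 19 CG) were kept, Mapk8 (chr14:34260345-34260544, - strand, 30 CG) and Dusp6 (chr10:98725665-98725864, + strand, 13 CG) were listed in no H3K4me3 list, and Map2k6 (chr11:110260236-110260435, + strand, 12 CG) was marked in Cxxc1-deficient cells alone. The last sequence is the strongest Cxxc1 window of Map2k6, inside the gene (chr11:110309401-110309600, + strand, 1 CG).
Dusp2: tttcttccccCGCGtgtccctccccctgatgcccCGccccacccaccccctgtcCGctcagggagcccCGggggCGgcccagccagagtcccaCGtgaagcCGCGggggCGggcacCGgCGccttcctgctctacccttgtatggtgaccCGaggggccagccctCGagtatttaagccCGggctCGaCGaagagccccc
Dusp1: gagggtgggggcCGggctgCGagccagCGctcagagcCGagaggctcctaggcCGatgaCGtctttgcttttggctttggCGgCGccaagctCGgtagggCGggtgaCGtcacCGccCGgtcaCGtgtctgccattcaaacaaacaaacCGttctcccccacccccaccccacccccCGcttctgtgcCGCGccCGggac
Mapk8: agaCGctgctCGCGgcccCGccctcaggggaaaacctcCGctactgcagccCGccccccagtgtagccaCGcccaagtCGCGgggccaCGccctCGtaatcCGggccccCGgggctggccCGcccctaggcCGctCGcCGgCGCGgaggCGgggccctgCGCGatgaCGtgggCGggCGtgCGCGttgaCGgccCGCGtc
Dusp6: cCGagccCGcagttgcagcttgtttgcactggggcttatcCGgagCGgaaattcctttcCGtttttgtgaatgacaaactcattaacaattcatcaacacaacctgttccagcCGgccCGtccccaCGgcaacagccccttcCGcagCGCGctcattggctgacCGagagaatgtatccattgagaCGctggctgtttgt
Map2k6: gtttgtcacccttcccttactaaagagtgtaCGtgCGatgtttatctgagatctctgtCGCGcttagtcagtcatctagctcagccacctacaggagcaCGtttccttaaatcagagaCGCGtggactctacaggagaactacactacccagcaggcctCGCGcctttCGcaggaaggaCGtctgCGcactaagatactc
Map2k6 Cxxc1 window: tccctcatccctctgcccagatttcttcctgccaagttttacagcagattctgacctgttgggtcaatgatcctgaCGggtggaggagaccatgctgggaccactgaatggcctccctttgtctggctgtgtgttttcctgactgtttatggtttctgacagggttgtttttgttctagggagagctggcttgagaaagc
The unlisted Mapk8 had more CG than either kept phosphatase, and the Cxxc1 window of Map2k6 had almost none.

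H3K4me3 was listed at the promoters of 39 of 66 members in WT (59.1%, 47.0 to 70.1) beside 32.5% of all 21275 genes. In Cxxc1-deficient cells 11 members were marked (16.7%, 9.57 to 27.4) beside 6.12% of all genes. Of the 39 members marked in WT, 8 were kept (20.5%, 10.8 to 35.5) beside 12.8% of all WT marked genes, a share inside the members' interval, and 31 were not. The 3 other members in the deficient list were marked there alone, which is 4.55% of members beside 1.96% of all genes. In bulk chromatin, fewer cells carrying the mark and less mark per cell cannot be told apart. The promoter regions of 11 members also hold the start of another gene, and without them 33 of 55 members were marked in WT and 18.2% of these were kept. Of the 66 members, 18 had no window in any list at the promoter, in the gene or in the 10 kb upstream.

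**Figure D1:**
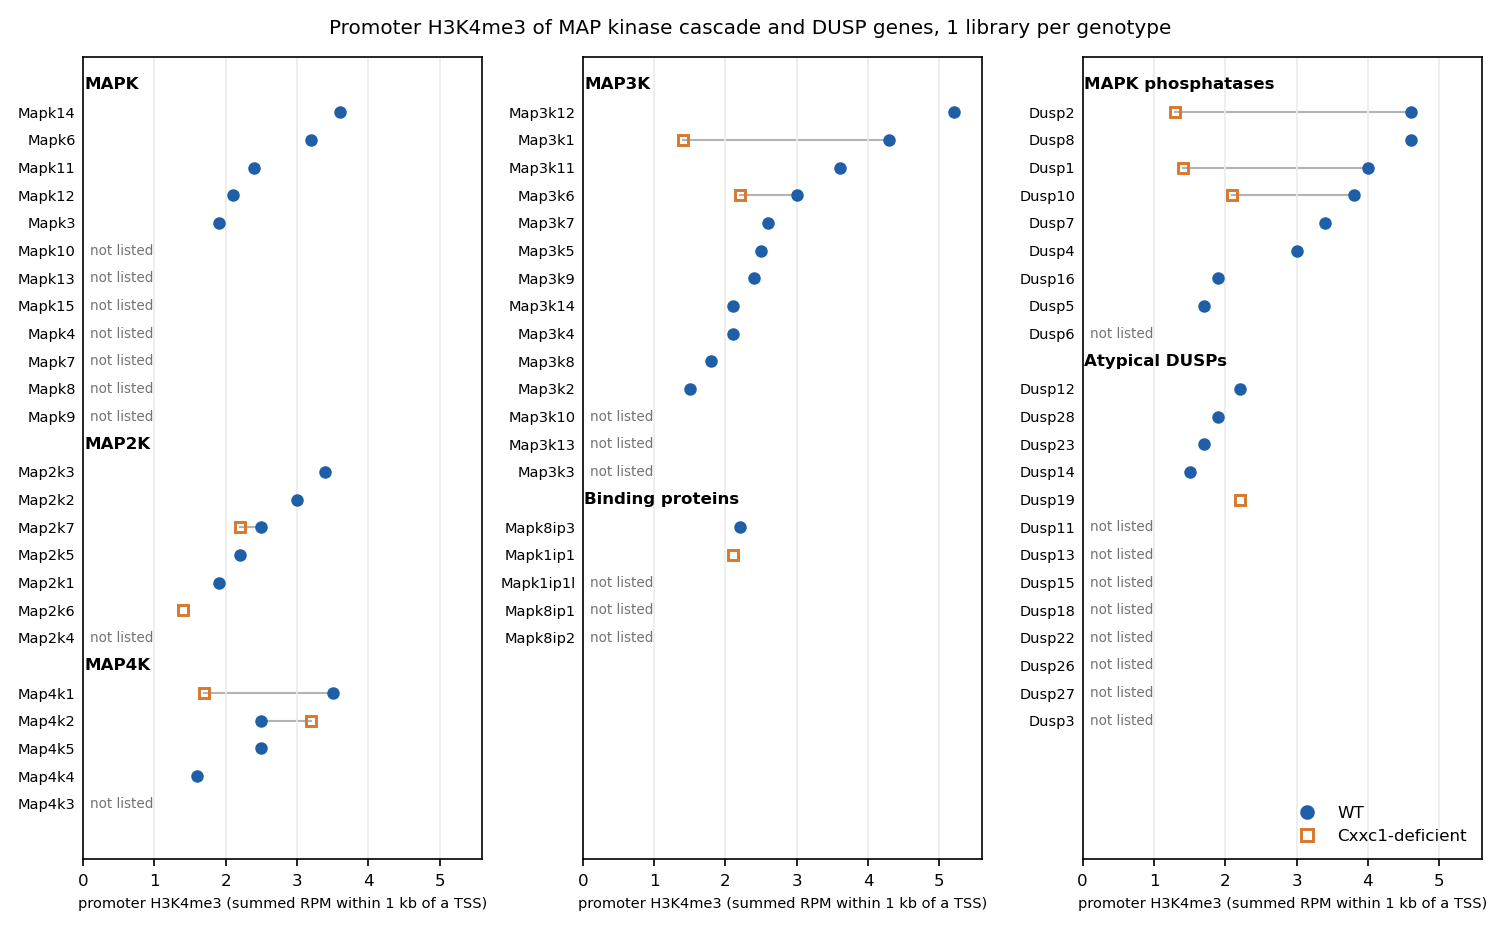
Promoter H3K4me3 of 65 of the 66 members by class: the horizontal axis is the summed RPM of windows within 1 kb of a TSS, filled circles are WT, open squares Cxxc1-deficient cells, and a grey line joins the values of a gene listed in both. Circles outnumber squares 38 to 11, and Map4k2 is the gene with both whose square lies to the right of its circle.

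Among MAP kinases 6 of 13 were marked in WT (46.2%, 23.2 to 70.9), among MAP2Ks 5 of 7 (71.4%, 35.9 to 91.8), among MAP3Ks 11 of 14 (78.6%, 52.4 to 92.4) and among MAP4Ks 4 of 5 (80.0%, 37.6 to 96.4). These intervals overlap, so no order of the layers can be read from them. Kinases as a whole stood at 26 of 39 (66.7%, 51.0 to 79.4) and phosphatases at 12 of 22 (54.5%, 34.7 to 73.1), a difference of 12.1 percentage points whose interval ran from -12.2 to 35.7 and so includes 0. Of 9 classical MAP kinase phosphatases 8 were marked (88.9%, 56.5 to 98.0). Of 13 atypical DUSPs, many of which do not act on MAP kinases, 4 were marked (30.8%, 12.7 to 57.6), close to the share of all genes. The classical and atypical intervals have only the stretch from 56.5 to 57.6 in common. No interval of this difference was computed, and an overlap this narrow does not decide whether the shares differ. With the classical phosphatases alone, the kinase share was the lower one, by 22.2 percentage points, but its interval overlaps theirs, so the direction of the difference is not resolved.

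**Figure D2:**
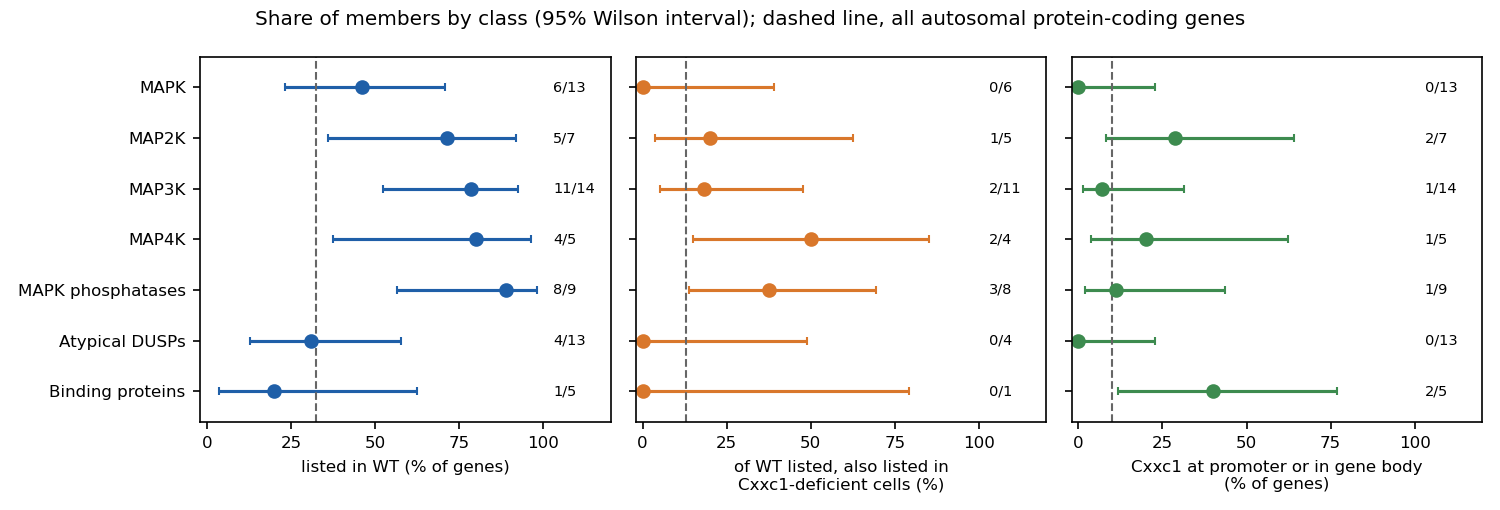
Shares of members by class with 95% Wilson intervals: left, genes marked in WT; middle, WT marked genes that were kept; right, genes with a Cxxc1 window at the promoter or in the gene, each in percent, with the counts beside the points and a dashed line at all autosomal genes. The classical phosphatases lie highest in the left panel (8 of 9), and MAP kinases and atypical DUSPs have 0 genes in the middle and right panels.

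Among the MAP kinases, the ERK gene Mapk3 was listed in WT at 1.9 RPM, below the median of 2.4 RPM over all 6917 marked genes. Mapk14, the main p38 kinase, had 3.6 RPM in 9 windows, though Slc26a8 starts within the same region. The atypical kinase Mapk6 had 3.2 RPM, and the p38 kinases Mapk11 and Mapk12, which lie next to each other, had 2.4 and 2.1 RPM. No JNK gene was marked: Mapk8, Mapk9 and the mainly neuronal Mapk10 were not listed at their promoters in either genotype. Mapk4, Mapk7, Mapk13 and Mapk15 were not listed there either. Of the 13 MAP kinases 0 were marked in Cxxc1-deficient cells, which allows a share of up to 22.8% and so includes the 6.12% of all genes.

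The MAP2Ks of the ERK branch, Map2k1 and Map2k2, had 1.9 and 3.0 RPM in WT and no listed promoter window in Cxxc1-deficient cells. Map2k3, an activator of p38, had 3.4 RPM in WT alone, and Map2k5, which activates the ERK family kinase Mapk7, had 2.2 RPM in WT alone. The JNK activators differed from each other, since Map2k7 was kept (2.5 RPM in WT and 2.2 RPM in deficient cells) and Map2k4 was listed in neither. Map2k6, the other p38 activator, was not listed in WT and had 1.4 RPM in 3 windows across its TSS in the deficient list.

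The MAP3Ks held the highest value of any member. Map3k12, best known from neurons, had 5.2 RPM in WT, at percentile 98.1 of all marked genes, in a promoter region that it shares with Tarbp2. Map3k1 followed with 4.3 RPM and Map3k11, which shares its region with Pcnxl3, with 3.6 RPM. Map3k7, the kinase that relays receptor signals to JNK, p38 and NF-kB, had 2.6 RPM, and Map3k8, a MAP3K of the ERK branch, had 1.8 RPM. Of these 5 genes only Map3k1 was kept, at 1.4 RPM, and the other kept MAP3K was Map3k6, at 3.0 RPM in WT and 2.2 RPM in deficient cells. Among the MAP4Ks, Map4k1, a haematopoietic kinase that restrains T cell receptor signalling, had 3.5 RPM in WT and 1.7 RPM in deficient cells. Map4k2 had 2.5 and 3.2 RPM, Map4k5 and Map4k4 had 2.5 and 1.6 RPM in WT alone, and Map4k3 was not listed.

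Among the classical phosphatases, Dusp2, a nuclear phosphatase of lymphoid cells, had 4.6 RPM in WT and 1.3 RPM in deficient cells. Dusp1, an immediate early gene, had 4.0 RPM and 1.4 RPM. Dusp10, which acts on JNK and p38, had 3.8 RPM and 2.1 RPM. Those 3 were kept, and each had fewer windows and a lower sum in the deficient list. Dusp8 (4.6 RPM), Dusp7 (3.4 RPM), Dusp4 (3.0 RPM), Dusp16 (1.9 RPM) and Dusp5 (1.7 RPM) were listed in WT alone. Dusp6, the cytoplasmic ERK phosphatase and a common readout of ERK signalling, was not listed in either genotype. The median over the 8 marked classical phosphatases was 3.6 RPM (range 1.7 to 4.6), over the 26 marked kinases 2.5 RPM (95% interval of the median, from order statistics, 2.1 to 3.0) and over all marked genes 2.4 RPM. The 4 marked atypical DUSPs lay lower: Dusp12 had 2.2 RPM, Dusp28 had 1.9 RPM, Dusp23 had 1.7 RPM and Dusp14 had 1.5 RPM. None of them was kept.

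Over the 39 marked members the WT promoter RPM ran from 1.5 to 5.2 with a median of 2.5 (2.1 to 3.0), so they did not stand above marked genes in general. Of the 39, 20 lay above 2.4 RPM and 2 at it, 5 lay above the 90th percentile (3.8 RPM), and 0 above the 99th (5.9 RPM). Counting error is wide at these values: the strongest, Map3k12, rests on 52 tags and the weakest on 15.

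The H3K4me3 of several classical phosphatases reached well past the promoter region. The widest WT peak at the promoter spanned a median of 2500 bp over the 8 classical phosphatases, with a range from 1000 to 4600 bp that takes in the medians that follow, 1400 bp over the 26 kinases and 1600 bp over all marked genes. The Dusp4 peak spanned 4600 bp with 7.1 RPM, of which only 3.0 RPM lay within 1 kb of the TSS. The Dusp2 and Dusp1 peaks each spanned 3600 bp with 6.8 and 5.7 RPM, and the Dusp8 peak 3000 bp with 5.0 RPM. Dusp5 had a narrow peak at the TSS (600 bp, 1.4 RPM), a wider one centred 1.7 kb downstream (1800 bp, 2.7 RPM) and another centred 9.6 kb upstream (3200 bp, 4.6 RPM). Among the kinases, only Map3k12 had a peak as wide as that of Dusp4, 4600 bp.

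**Figure D3:**
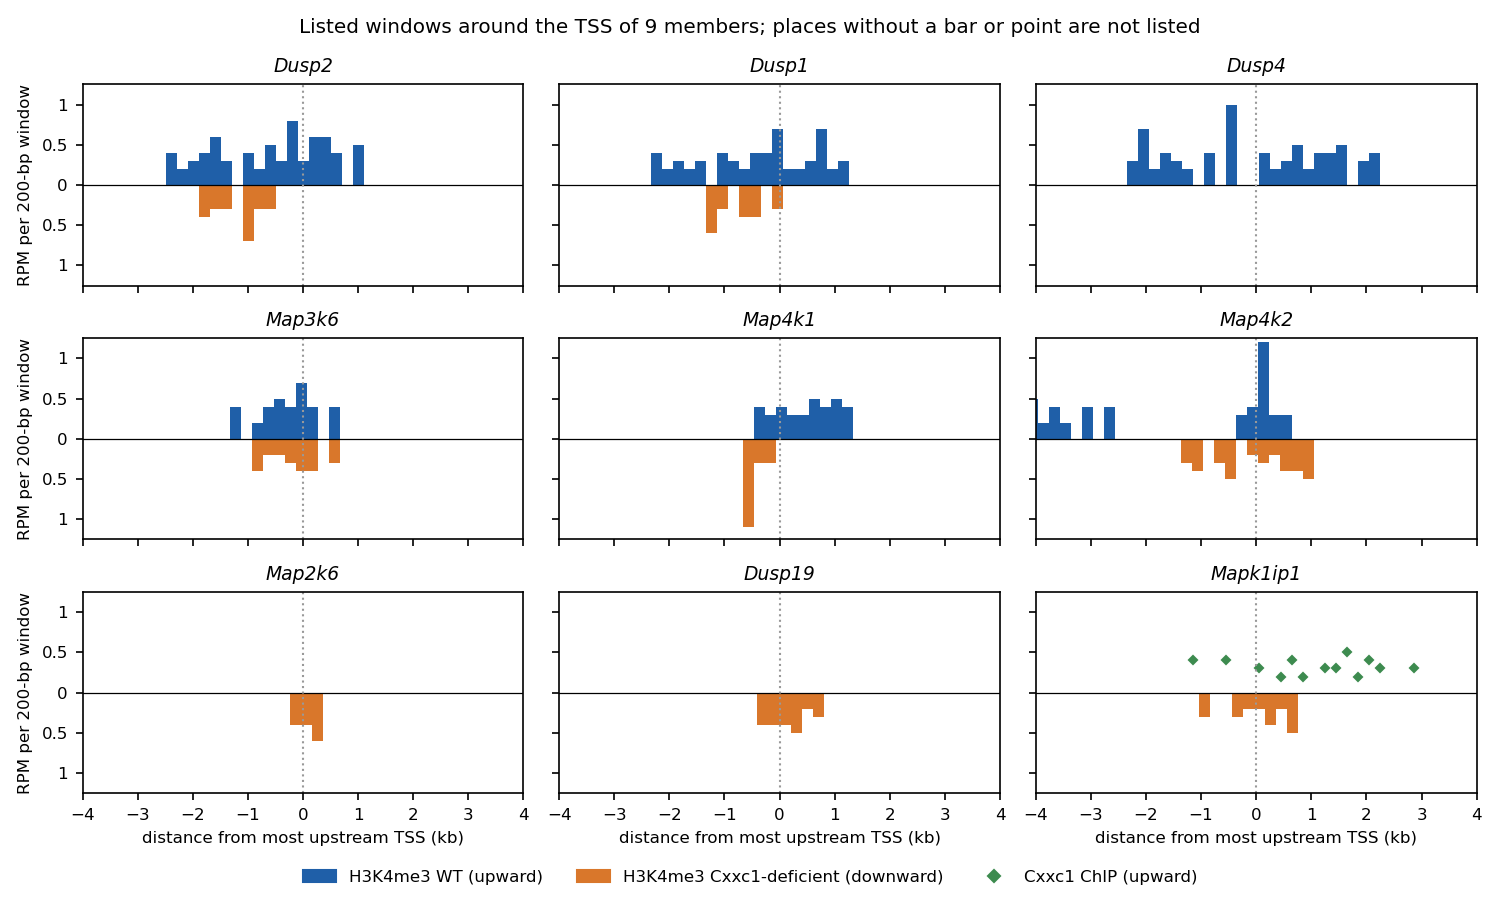
Listed 200-bp windows of 9 members by distance from the most upstream TSS in kb: upward blue bars are WT H3K4me3, downward orange bars Cxxc1-deficient H3K4me3 and green diamonds Cxxc1, all in RPM per window. At Dusp2 the orange windows cover only the upstream side of the blue ones, Map3k6 has orange windows on most blue positions, and Map2k6, Dusp19 and Mapk1ip1 have orange windows and no blue ones.

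At the 8 kept promoters the WT list had 65 windows with 28.2 RPM (279 tags) and the deficient list 40 windows with 15.5 RPM (154 tags). The summed WT promoter RPM was the higher one at 7 of the 8, all but Map4k2, and at 75.2% of all 886 kept genes. In tags, Dusp2 had 46 in WT (exact Poisson 95% interval 33.7 to 61.4) and 13 in deficient cells (6.92 to 22.2), and Map3k1 had 42 (30.3 to 56.8) and 14 (7.65 to 23.5). Dusp1 had 40 (28.6 to 54.5) and 14 (7.65 to 23.5). These sums run over different numbers of listed windows (10 against 3 at Dusp2, 9 against 3 at Map3k1 and 11 against 4 at Dusp1), so they describe how much was listed and give no change in level.

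**Figure D4:**
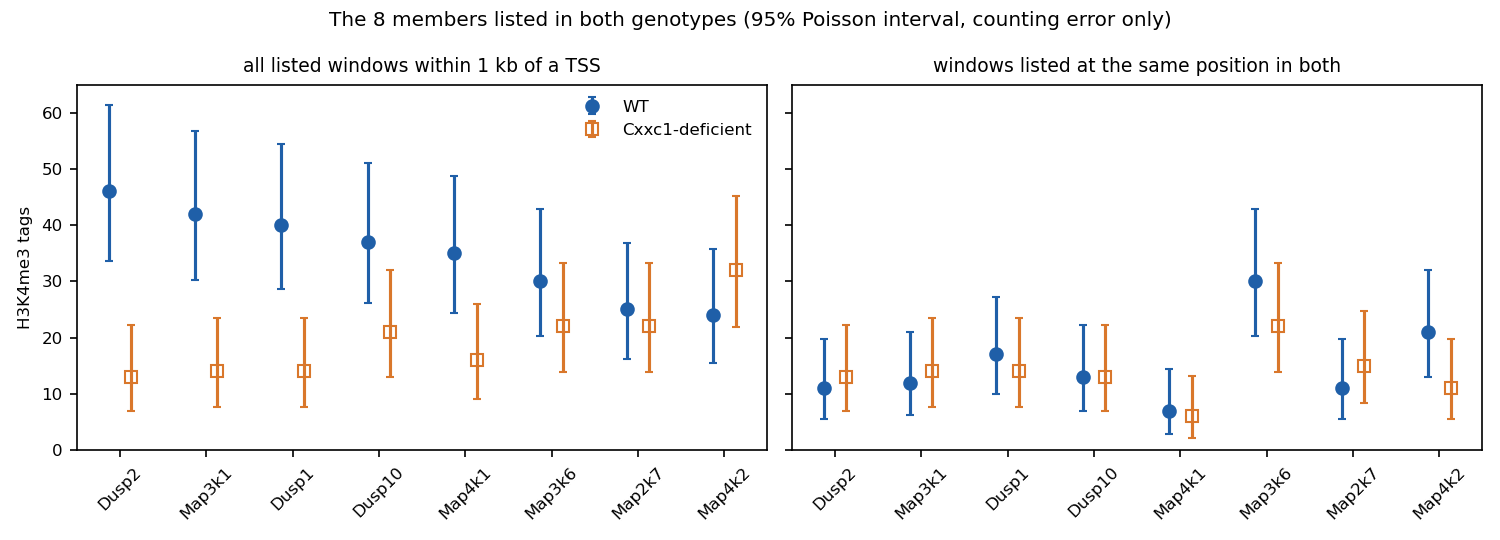
H3K4me3 tags of the 8 members listed in both genotypes, with exact 95% Poisson intervals that cover counting error only: left, all listed windows within 1 kb of a TSS; right, windows listed at the same position in both. The left sums cover more windows in WT than in deficient cells at Dusp2, Map3k1 and Dusp1, and on the right, over the same windows, the intervals of both genotypes overlap at every gene.

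Values can be compared only at windows listed in both genotypes, which are by that choice windows with signal in both. The 8 kept members had 30 such windows, with 12.3 RPM (122 tags) in WT and 10.8 RPM (108 tags) in deficient cells, and WT was higher in 15, lower in 11 and equal in 4. Per window this was a mean of 0.41 RPM in WT against 0.36 RPM in deficient cells, beside 0.42 and 0.357 RPM over the 2544 such windows of all kept genes. In WT and deficient cells, the shared windows held 11 and 13 tags at Dusp2, 12 and 14 at Map3k1, 17 and 14 at Dusp1 and 21 and 11 at Map4k2, each pair within overlapping Poisson intervals. At Dusp2 and Map3k1 the lower deficient sum thus came from windows that the deficient list did not hold. Map3k6 had the most shared windows, with 7 of 7 deficient windows at WT positions (30 tags in WT and 22 in deficient cells). At Map4k1 the deficient peak reached farther upstream than the WT peak and ended short of the TSS, in a region shared with the start of Eif3k, and the peaks had 2 windows in common. At Dusp10 neither list had a window at the most upstream TSS, and both peaks lay at the second TSS about 21 kb into the gene, within 1 kb of the start of 1700056E22Rik.

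The median WT promoter RPM of the kept members was 3.65 (n = 8, range 2.5 to 4.6), which is also the 95% interval of the median, and that of the 31 WT marked members that were not kept was 2.2 (1.9 to 2.6). Over all genes the corresponding medians were 2.6 and 2.3 RPM. Below 2 RPM 0 of 11 members were kept, which allows up to 25.9% (all genes 9.96%), from 2 to under 3 RPM 2 of 13 (all genes 11.6%), from 3 to under 4 RPM 3 of 10 (all genes 14.9%) and from 4 RPM up 3 of 5 (all genes 24.7%). The strong member promoters that were not kept were those of Map3k12 and Dusp8. Members and all genes thus ran in the same direction, and with 5 to 13 members in each step the members' shares have intervals that include those of all genes.

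The 3 members marked in Cxxc1-deficient cells alone had 14 to 22 tags each and no WT window within 10 kb upstream or in the gene. Dusp19, an atypical DUSP, had 2.2 RPM in 6 windows around its TSS. Map2k6 had 1.4 RPM in 3 windows (chr11:110260201-110260800), at percentile 0.671 of the peaks of that list by RPM. Mapk1ip1 had 2.1 RPM in 7 windows (chr7:146037201-146039000), in a region that also holds the start of Ppp2r2d.

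Cxxc1 windows were few over the genome and lay at 3 of 66 promoters (4.55%, 1.56 to 12.5) beside 2.03% of all genes, namely Mapk1ip1 (1.5 RPM), Mapk1ip1l (1.5 RPM) and Map3k10 (1.4 RPM). Of the 3, 0 were marked by H3K4me3 in WT, which allows a share of up to 56.1%, and 46.2% of all genes with Cxxc1 at the promoter were. Inside the gene, outside the promoter regions, Cxxc1 windows lay in 7 members (10.6%, 5.23 to 20.3) beside 8.8% of all genes, and these included the 3 above. The others were Map2k6 with 3.2 RPM, Dusp16 with 1.8 RPM, Map4k5 with 1.7 RPM and Map2k5 with 2 peaks of 1.4 and 1.5 RPM. The Map2k6 peak (chr11:110309001-110311400) is centred 49.76 kb downstream of the TSS, at percentile 97.4 of all Cxxc1 peaks by RPM. The Mapk1ip1 peak (chr7:146035001-146039200, 4.2 RPM) is the strongest of the members, at percentile 99.4, and covers the deficient H3K4me3 peak described above.

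Of the 7 genes with Cxxc1, 3 were marked in WT (Map2k5, Map4k5 and Dusp16) and none of the 3 was kept. Among all WT marked genes with Cxxc1 at the promoter or in the gene 13.6% were kept, and 3 members are too few to set against that share. Over all genes 43.7% of those with Cxxc1 at the promoter or in the gene were marked beside 31.3% of the others. Map2k6 and Mapk1ip1, 2 of the 3 members marked in deficient cells alone, were among the 7 members with Cxxc1. Over all genes not marked in WT, 4.73% of those with Cxxc1 (3.66 to 6.09) and 2.74% of those without (2.47 to 3.03) were marked in deficient cells alone. Gene length moved with Cxxc1 in the gene: 0 of 13 members under 10 kb had such a window, and 2 of 8 members of 100 kb or more did, beside 1.29% and 34.3% of all genes. Per Mb of gene, members had 12.8 Cxxc1 windows and all genes 10.9. Of the members' 39 windows, 7 lay in Mapk1ip1 and 3 in Mapk1ip1l. Kinases had 9.93 per Mb and phosphatases 9.78, but the phosphatase value rests on 4 windows, all in Dusp16, so the 2 cannot be compared closely.

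The strongest Cxxc1 window of 6 of these 7 members held 1 to 3 CG in 200 bases, like the Map2k6 window printed above. The exception was Mapk1ip1l with 23 CG, just downstream of its TSS. That window, at 135 bp, had 0.5 RPM, as did those at 1335 and 1535 bp, whose CG was not counted. Among tied windows the one with the lowest coordinate was taken, so this exception rests on that rule. Over all 4330 autosomal Cxxc1 peaks the median was 2 CG in the strongest window and 3.65% had at least 10, where an average 200 bases of the autosomes hold 1.7.

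H3K4me3 outside the promoter regions lay in 21 members in WT (31.8%, 21.8 to 43.8) beside 21.4% of all genes. Among WT marked genes it lay in 19 of 39 members (48.7%, 33.9 to 63.8) beside 43.9% of all. Among genes not marked in WT it lay in 2 of 27 members (7.41%, 2.06 to 23.4) beside 10.6%. Both all-gene shares lie inside the members' intervals. In Cxxc1-deficient cells it lay in 7 members (10.6%, 5.23 to 20.3) beside 5.91% of all genes. In 13 of the 21 WT members this H3K4me3 formed a peak of its own rather than the flank of a promoter peak. The strongest, in Mapk8ip3 (6.4 RPM), lay at the starts of Eme2, Mrps34 and Nme3, which sit near the end of that gene. Map4k1 had a peak of 4.4 RPM near its end (chr7:29784601-29787600), stronger than the 3.5 RPM at its promoter, with no other gene start within 1 kb. Map3k14, which feeds the non-canonical NF-kB pathway, had 3 such peaks and 2 more upstream, and Map2k2, Map2k3 and Map3k6 had 2 each. The deficient list had such windows in Map2k5, Map3k5, Map3k9, Map3k14, Map4k4, Mapk10 and Dusp10, and of these 7 genes only Dusp10 was also marked at its promoter in that list.

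Member promoters were rich in CG. Within 1 kb on either side of the most upstream TSS they held a median of 101.5 CG (95% interval of the median 89 to 117), and all genes 62. At least 60 CG were found at 58 of 66 members (87.9%) and 51.7% of all genes. Among genes with at least 60 CG, 38 of 58 members were marked in WT (65.5%, 52.7 to 76.4) beside 53.1% of all such genes, a share inside the members' interval. The gap was smaller than that between 59.1% and 32.5% without regard to CG. Among the other promoters 1 of 8 members was marked beside 10.5% of all, and that 1 was Dusp10, whose count of 22 CG belongs to a TSS without H3K4me3.

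The medians by marking lay in opposite order in phosphatases and kinases. Marked phosphatases had a median of 130 CG (95% interval of the median 67 to 161) and unmarked ones 75 (35 to 92), and classical phosphatases had 136 and atypical ones 73. Marked kinases had 106.5 CG (99 to 141) and unmarked kinases 117 (40 to 147), so in neither class were the medians resolved from each other. Of the 27 members not marked in WT, 20 had at least 60 CG, as did 58 of all 66 members and 51.7% of all genes. The 27 had a median of 89 CG (70 to 120), and all genes not marked in WT had 37. Among the 20 were Mapk8 with 157, Map2k4 with 123, Dusp6 with 120 and Mapk9 with 110. The palindrome tgaCGtca, the site of CREB and ATF family factors, occurred in the 200 upstream bases of 3 of 66 members (Dusp1, Mapk1ip1 and Mapk10). That is 4.55% (1.56 to 12.5) beside 1.8% of all genes, a share inside the members' interval. Among WT marked genes it was 1 of 39 members (2.56%) beside 2.43%. The palindrome reads the same on both strands. In the Dusp1 sequence above it begins 96 bases before the TSS.

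**Figure D5:**
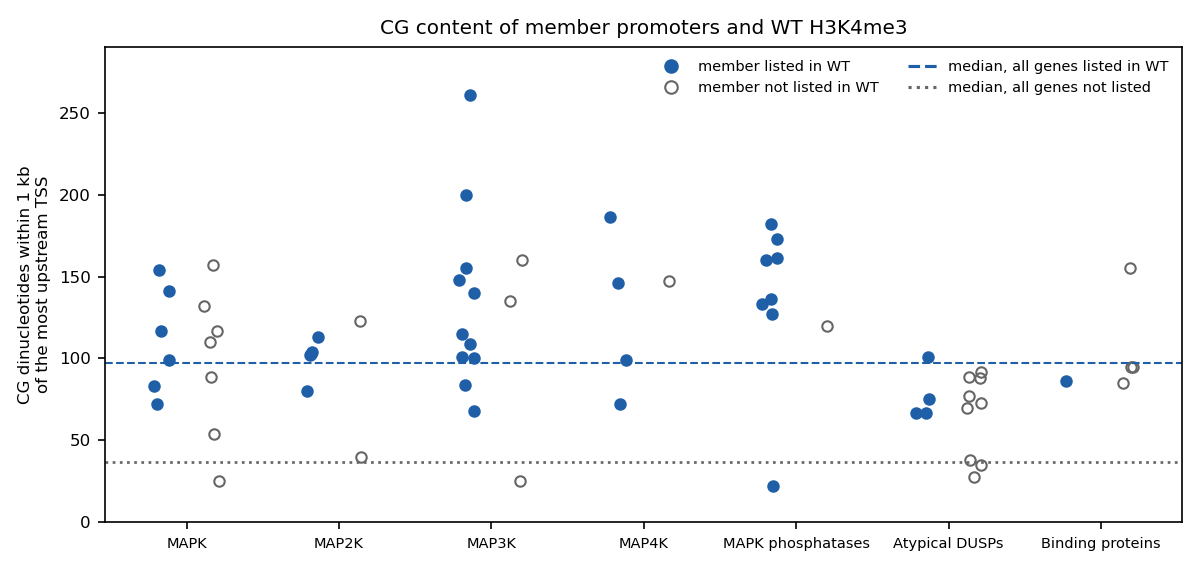
CG dinucleotides within 1 kb of the most upstream TSS, by class: filled circles are members marked in WT, open circles members that were not, and the lines give the medians of all genes marked (97) and not marked (37) in WT. Most open circles of the MAP kinases lie far above the lower line, and the lone filled circle at the bottom is Dusp10.

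Other genes of the pathway were looked up from a list of 48 found in the annotation. In WT 35 of them were marked (72.9%, 59.0 to 83.4), in deficient cells 9 (18.8%, 10.2 to 31.9), and 8 of the 35 were kept (22.9%, 12.1 to 39.0). The corresponding shares of the members were 59.1%, 16.7% and 20.5%, and those of all genes 32.5%, 6.12% and 12.8%. The 12.8% lies inside the kept interval of the 35 genes. Upstream of the cascade, Rasgrp1, the Ras activator of thymocytes, had 3.1 RPM in WT and 2.3 RPM in deficient cells. Among the transcription factors that MAP kinases act on or induce, 9 of 12 were marked and 4 kept (Junb, Jund, Atf2 and Egr1), while Fos (3.6 RPM), Jun (4.2 RPM) and Egr2 (5.5 RPM) were listed in WT alone. Of 9 other inhibitors 6 were marked in WT (66.7%, 35.4 to 87.9), among them Spry1 (3.0 RPM) and Spred1 (3.6 RPM), and 0 in deficient cells. That 0 allows a share of up to 29.9% marked in deficient cells, beside 6.12% of all genes. For the 6 marked in WT it allows up to 39.0% kept, beside 12.8% of all WT marked genes.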

How the data were processed

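Per the study's methods, DP thymocyte chromatin was fixed with formaldehyde and sonicated, and 50-bp reads (CASAVA 1.8.2) were mapped to mm9. Uniquely mapped reads were passed to SICER 1.1. The methods name input and the ChIP of Cxxc1-deficient cells as controls, and the study's results name them for the Cxxc1 regions. Which controls served for the H3K4me3 lists is not stated separately. The aligner and the handling of duplicates are not given in the sources used here, and both can change which windows are listed. The authors deposited 200-bp windows with RPM values at 1 decimal. No genotype is given with the Cxxc1 list, which was taken as WT from the study's methods. Input and the Cxxc1 ChIP of deficient cells were not used here.

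Tags were recovered from the steps of the RPM values, which placed the depth at 9.091 to 9.122 M tags for Cxxc1, 9.455 to 9.473 M for WT H3K4me3 and 9.434 to 9.454 M for deficient H3K4me3. The lowest listed window held 2 tags. Windows up to 2 missing windows apart were joined into peaks. TSSs came from the GENCODE vM1 annotation (protein-coding transcripts, mm9 coordinates), with the longest entry kept for each symbol, which left out 135 entries, among them shorter ones of Map3k4 and Dusp8. Windows counted with 1 bp of overlap, and gene body means inside the gene and outside all its promoter regions. Python 3.11.15 with numpy 2.4.6, pandas 2.3.3, scipy 1.17.1 and matplotlib 3.10.9 was used, and the functions were tested on simulated data. Sequences were read from the mm9 assembly, none of them overlapping an annotated exon.

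Members, classes, lists and alternatives were chosen with earlier results of these data known. Genes named were those with Cxxc1 windows, those marked in deficient cells, the 8 kinases and 8 phosphatases of highest WT promoter RPM, the 3 of widest marking, and 20 core members. Others named were singled out after their values were seen, such as unlisted members. A few items are not reported here. With 1 library per group no test was run. Alternatives were promoters of 500 bp or 2 kb, 1 TSS per gene, the stronger 50% of peaks, unshared promoters, stricter keeping and other class limits.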

Additional observations from a re-analysis of the deposited data

How the results depend on the processing

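Of 79 values recomputed for 14 results, 73 stayed within the counting interval of the main value, and 6 did not. With the stronger 50% of peaks, the WT marked share was 37.9% of members and 41.0% of kinases, and the gene body H3K4me3 share was 19.7%. With promoters of 2 kb the gene body share was 21.2%. No share of all genes is given at these settings, so these values are not to be set beside the shares of all genes above. With the classical phosphatases alone their WT marked share was 88.9%, and the kinase share minus it was -22.2 percentage points in place of 12.1. The class limits alone account for that last change, since the atypical DUSPs are left out. No paired analysis was possible because every list comes from 1 library. Leaving out a replicate was likewise not possible. A gene with fewer tags than SICER requires is not listed, so at 9.091 to 9.473 M tags an unlisted promoter may still carry H3K4me3.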
